A study of Danio rerio with 12 samples.

Results

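A set of 10 genes of the contractile apparatus and of muscle differentiation were followed in zebrafish embryos at 12 hours after fertilisation. The deposited count table holds 32520 genes. They were taken by gene identifier, namely 2 titin genes, 2 genes named ACTA1, 1 MEF2C gene, actc1b, SRL and CSRP3, and by symbol for the slow myosin heavy chains smyhc1 and smyhc2. Of the 10, 9 passed the filter on low counts and were tested among 12293 genes. The filter asked for at least 6.80 CPM in 3 libraries. CSRP3 passed it through 3 H2A.Z-mCherry libraries alone, so its calls against treated wild type rest on a gene admitted by the group in which it is high. In wild type, SRL and smyhc2 each reached 6.80 CPM in 3 DMSO libraries and in 0 treated ones. The tenth, smyhc1, reached that level in 1 library and is described by its counts. Gene names are Ensembl symbols from a reference list, matched to the deposited counts by gene identifier. Some of them follow the human style, and genes that share a name are told apart by identifier.

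The sarcomere is the contractile unit of striated muscle, in which actin thin filaments slide along myosin thick filaments. Titin spans from the Z disc to the middle of the thick filament and holds the thick filament in place. In the zebrafish trunk, the slow muscle precursors beside the notochord are among the first cells to switch on these genes while somites are still forming, downstream of myogenic factors such as MyoD and Myf5 and with cofactors of the MEF2 family.

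The study compared 4 groups of 3 total RNA libraries each, made from whole embryos. The wild type was of the AB/Tuebingen background. The other genotype carried H2A.Z-mCherry, a fusion of the histone variant H2A.Z to a red fluorescent protein, and its genotype label is H2A.Z overexpression. The labels name neither the promoter that drives the fusion nor the origin of the line. Embryos of each genotype were kept from just after spawning, about 50 to a well, either in 5 mL of 100 µM 5AzadC or in 0.1% DMSO as the control. 5AzadC (decitabine) is a cytidine analogue that is built into DNA and traps DNA methyltransferases there. All 12 libraries were from embryos of 12 hours. The labels do not say whether replicates were separate clutches, so the p-values measure the spread between these libraries, which may be technical.

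Library totals ranged from 1142051 to 1904063 counts, and 1 count was worth 0.521 to 0.923 CPM, the count scaled to library size with TMM factors. The tested genes held 98.5% of all counts. Levels are given in CPM, which are not divided by gene length, and levels of different genes are therefore not compared. A gene is said to have risen or fallen, or to be called, where edgeR's quasi-likelihood test gave an adjusted p (Benjamini-Hochberg over all tested genes) under 0.05. Fold changes are on the log2 scale, with standard errors derived from the test statistic. In RNA from whole embryos, fewer cells of a type and less RNA per cell cannot be told apart.

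In wild-type embryos, all 9 tested genes fell with 5AzadC, where 11.7% of all tested genes were called lower and 22.3% in either direction, and the median log2 fold change of the 9 was -1.90 against 0.01 over all tested genes. The members were chosen with earlier results of these data known, so their counts beside these shares are a description and no independent test. In each of the 9, all 3 treated libraries lay under all 3 DMSO libraries, a separation seen downward in 17.9% of tested genes. In H2A.Z-mCherry embryos, 4 of the 9 fell, where 9.03% of all tested genes were called lower and 17.9% in either direction, and the median was -0.71 against 0.02. Those 4 were both titin genes, MEF2C and smyhc2, and they were also the 4 whose groups did not overlap, where 16.3% of tested genes separated downward. The difference between the responses, tested as the interaction of genotype and 5AzadC, was called positive for 5 of the 9, namely both titin genes, actc1b, CSRP3 and MEF2C, where 1.9% of tested genes were called positive and 3.75% in either direction. CSRP3 is in that count although it passed the filter through H2A.Z-mCherry libraries alone. With no filter on low counts, all 10 were tested, and 10 fell in wild type, 4 fell in H2A.Z-mCherry and 4 had a called interaction. Of the 25052 genes tested in that fit, 9.91%, 7.69% and 1.65% were called in either direction in these comparisons. The wild-type median was the same with CSRP3, which had no count in 5AzadC-treated wild type, set to its bound.

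**Figure D1:**
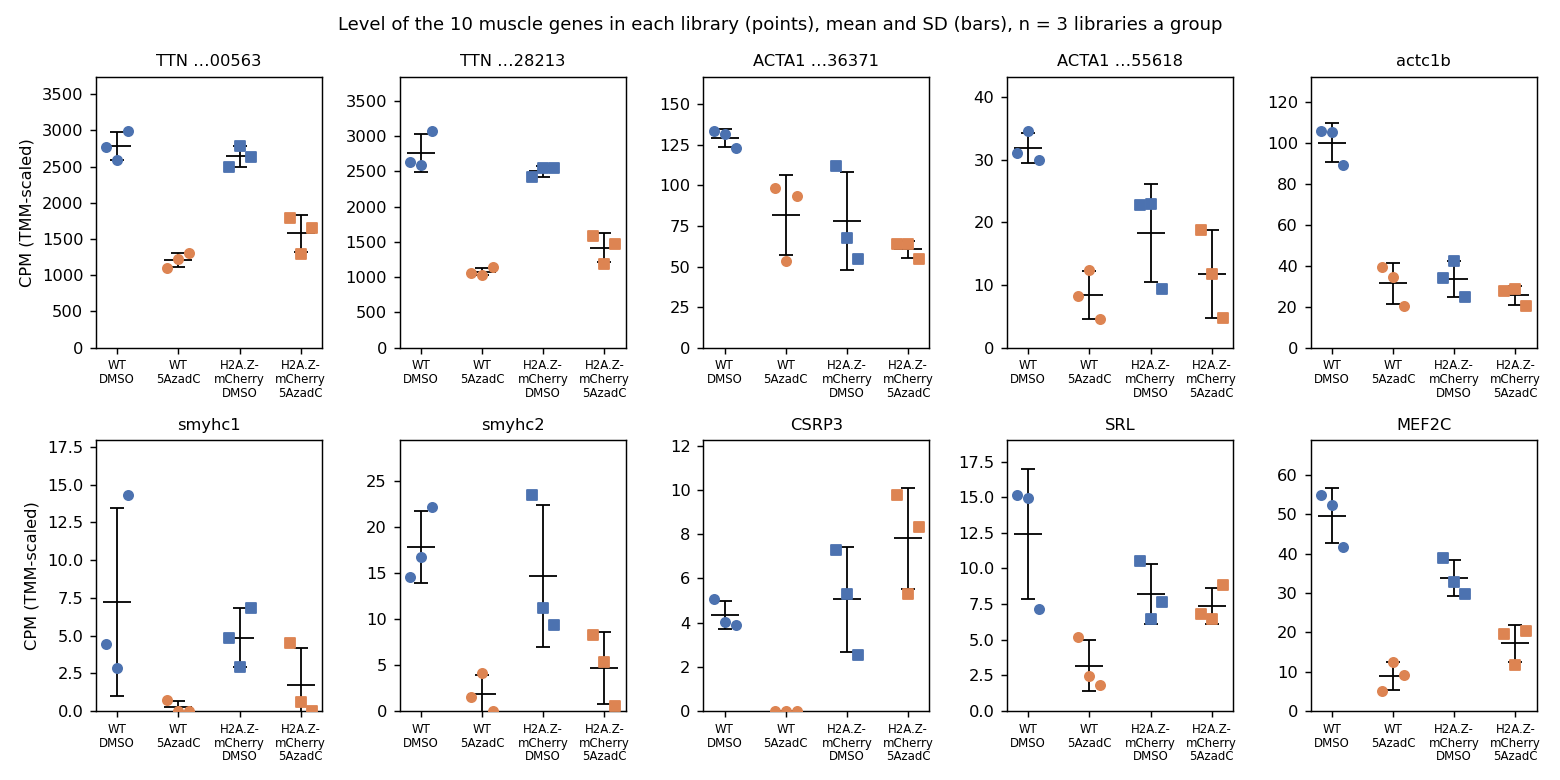
Level of each of the 10 genes in CPM (TMM-scaled, linear axes that start at 0) in every library, with the mean and SD of 3 libraries a group; dots after a name stand for the first digits of the Ensembl identifier. In wild type, the DMSO points lie above the 5AzadC points in all 10 panels, while in H2A.Z-mCherry the 2 treatments overlap for both ACTA1 genes, actc1b, smyhc1, CSRP3 and SRL.

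The titin genes carried nearly all of the set's reads. They held 93.2 to 97.3% of the counts of the 10 genes in every library, so any sum over the set is a titin value. The 10 genes together took 0.591% ± 0.043 (SD, n = 3) of the counts in DMSO-treated wild type and 0.230% ± 0.012 (SD, n = 3) in 5AzadC-treated wild type. In H2A.Z-mCherry the shares were 0.533% ± 0.032 (SD, n = 3) with DMSO and 0.310% ± 0.047 (SD, n = 3) with 5AzadC.

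Titin is the giant elastic protein of the sarcomere. TTN (ENSDARG00000000563) stood at 2773, 2590 and 2987 CPM in wild type with DMSO and at 1106, 1222 and 1305 CPM with 5AzadC. In H2A.Z-mCherry it stood at 2499, 2786 and 2635 CPM with DMSO and at 1788, 1299 and 1646 CPM with 5AzadC. The DMSO groups of both genotypes overlapped, and every treated library lay under every untreated one. The log2 fold change was -1.20 ± 0.08 (SE; 2.30-fold lower, adjusted p = 1.67e-18) in wild type and -0.74 ± 0.08 (SE; adjusted p = 1.42e-10) in H2A.Z-mCherry. The responses differed by 0.46 ± 0.12 (SE; interaction, adjusted p = 0.0125). That interaction was not called on leaving out, among wild-type libraries, replicate 3 of DMSO (adjusted p = 0.0644) or replicate 1 of 5AzadC (0.0661), or, among H2A.Z-mCherry libraries, replicate 1 of DMSO (0.0564) or of 5AzadC (0.0974).

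The second titin gene, TTN (ENSDARG00000028213), stood at 2627, 2585 and 3070 CPM in wild type with DMSO and at 1063, 1036 and 1138 CPM with 5AzadC. The H2A.Z-mCherry libraries stood at 2415, 2549 and 2544 CPM with DMSO and at 1582, 1187 and 1478 CPM with 5AzadC. The 4 groups did not overlap, with both DMSO groups on top, then treated H2A.Z-mCherry, then treated wild type. Its log2 fold change was -1.36 ± 0.08 (SE; 2.56-fold lower, adjusted p = 2.03e-23) in wild type and -0.82 ± 0.08 (SE; adjusted p = 3.17e-13) in H2A.Z-mCherry. The interaction of 0.53 ± 0.11 (SE; adjusted p = 0.00155) kept its call whichever of the 12 libraries was left out.

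The balance of the titin pair hardly moved. TTN (ENSDARG00000000563) took 49.3 to 51.4% of the pair's counts in wild type with DMSO and 51 to 54.1% with 5AzadC. In H2A.Z-mCherry it took 50.9 to 52.2% with DMSO and 52.3 to 53.1% with 5AzadC. Zebrafish titins lie close together on one chromosome, with 1 annotated entry between ttn.1 and ttn.2 in RefSeq's GRCz12tu annotation. Which identifier is which of them is not paired there, and reads that match both could be split between them.

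Skeletal and cardiac alpha-actins form the thin filaments. Among the members, actc1b had the widest gap between the genotypes without drug. It stood at 105.6, 105.3 and 89.3 CPM in wild type with DMSO and at 39.5, 34.6 and 20.3 CPM with 5AzadC. In H2A.Z-mCherry it stood at 34.0, 42.3 and 24.7 CPM with DMSO and at 27.8, 28.9 and 20.3 CPM with 5AzadC. DMSO-treated wild type stood alone at the top, and the other 3 groups overlapped each other. Its log2 fold change with 5AzadC was -1.65 ± 0.23 (SE; 3.14-fold lower, adjusted p = 1.36e-08) in wild type and -0.42 ± 0.25 (SE; adjusted p = 0.255) in H2A.Z-mCherry. With DMSO alone, H2A.Z-mCherry was lower than wild type by -1.55 ± 0.22 (SE; 2.92-fold lower, adjusted p = 2.28e-07). The interaction was 1.23 ± 0.34 (SE; adjusted p = 0.0225), and it was not called in 6 of the 12 fits that left out a library. Those 6 left out, in wild type, replicate 1 (adjusted p = 0.0597) or 2 (0.0633) of DMSO and replicate 3 of 5AzadC (0.105), and H2A.Z-mCherry DMSO replicate 3 (0.0885), and H2A.Z-mCherry 5AzadC replicate 1 (0.0654) or 2 (0.0745).

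ACTA1 (ENSDARG00000036371), a skeletal alpha-actin gene, had the smallest fall of the 9 in wild type. It stood at 133.4, 131.7 and 123.2 CPM in wild type with DMSO and at 98.3, 53.5 and 93.3 CPM with 5AzadC. The H2A.Z-mCherry libraries stood at 111.8, 67.6 and 54.4 CPM with DMSO and at 64.0, 63.6 and 54.7 CPM with 5AzadC. The log2 fold change was -0.66 ± 0.19 (SE; adjusted p = 0.00625) in wild type. It was -0.43 and not called (adjusted p = 0.105) without wild-type 5AzadC replicate 2, the lowest treated library. In H2A.Z-mCherry it was -0.36 ± 0.20 (SE; adjusted p = 0.220), with overlapping groups. With DMSO, H2A.Z-mCherry was lower than wild type by -0.74 ± 0.19 (SE; adjusted p = 0.00815), a call that was lost without H2A.Z-mCherry DMSO replicate 2 (adjusted p = 0.0833) or 3 (0.114).

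The second ACTA1 gene (ENSDARG00000055618) stood at 31.0, 34.5 and 30.0 CPM in wild type with DMSO and at 8.19, 12.4 and 4.62 CPM with 5AzadC. In H2A.Z-mCherry it stood at 22.7, 22.9 and 9.35 CPM with DMSO and at 18.8, 11.8 and 4.69 CPM with 5AzadC. Wild type separated cleanly, whereas replicate 3 was low under both treatments in H2A.Z-mCherry and the groups there overlapped. Its log2 fold change was -1.90 ± 0.39 (SE; 3.73-fold lower, adjusted p = 0.000116) in wild type and -0.71 ± 0.39 (SE; adjusted p = 0.207) in H2A.Z-mCherry. The interaction of 1.19 ± 0.56 (SE; adjusted p = 0.268) was of the size of that for actc1b and did not pass.

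Of the summed counts of the 3 actins, actc1b took 36.8 to 39.1% in DMSO-treated wild type, against 17.2 to 34.4% in treated wild type, 20.2 to 31.9% in H2A.Z-mCherry with DMSO and 25.2 to 27.7% in H2A.Z-mCherry with 5AzadC. ACTA1 (ENSDARG00000036371) took 48.5 to 50.8% in DMSO-treated wild type and 53.3 to 78.9% in treated wild type. Alpha-actins are close to identical in sequence, and the labels do not state how reads that match several genes were counted, so the split between them is uncertain.

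A further pair of alpha-actin genes, outside the set and chosen for display after their values were seen, showed other patterns. The level of actc1c was 47.4, 80.5 and 39.8 CPM in wild type with DMSO and 119.1, 58.5 and 61.0 CPM with 5AzadC. In H2A.Z-mCherry it was 3.24, 3.53 and 3.40 CPM with DMSO and 4.52, 6.48 and 5.73 CPM with 5AzadC. Every H2A.Z-mCherry library lay far under every wild-type library, at a log2 difference of -4.01 ± 0.38 (SE; adjusted p = 1.46e-13) with DMSO and -3.81 ± 0.33 (SE; adjusted p = 4.53e-15) with 5AzadC. In wild type its change with the drug was 0.51 ± 0.25 (SE; adjusted p = 0.134), called without DMSO replicate 2 (0.0228). In the same embryos, actc1a rose with 5AzadC by 0.45 ± 0.11 (SE; adjusted p = 0.000959), from 267 to 281 CPM up to 319 to 437 CPM. Its change in H2A.Z-mCherry was 0.28 ± 0.11 (SE; adjusted p = 0.0682), called without 5AzadC replicate 3 (0.0184). With the drug, actc1a was lower in H2A.Z-mCherry than in wild type by -0.43 ± 0.11 (SE; adjusted p = 0.00273), but not without 5AzadC replicate 3 of wild type (0.0695) or of H2A.Z-mCherry (0.0770).

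**Figure D2:**
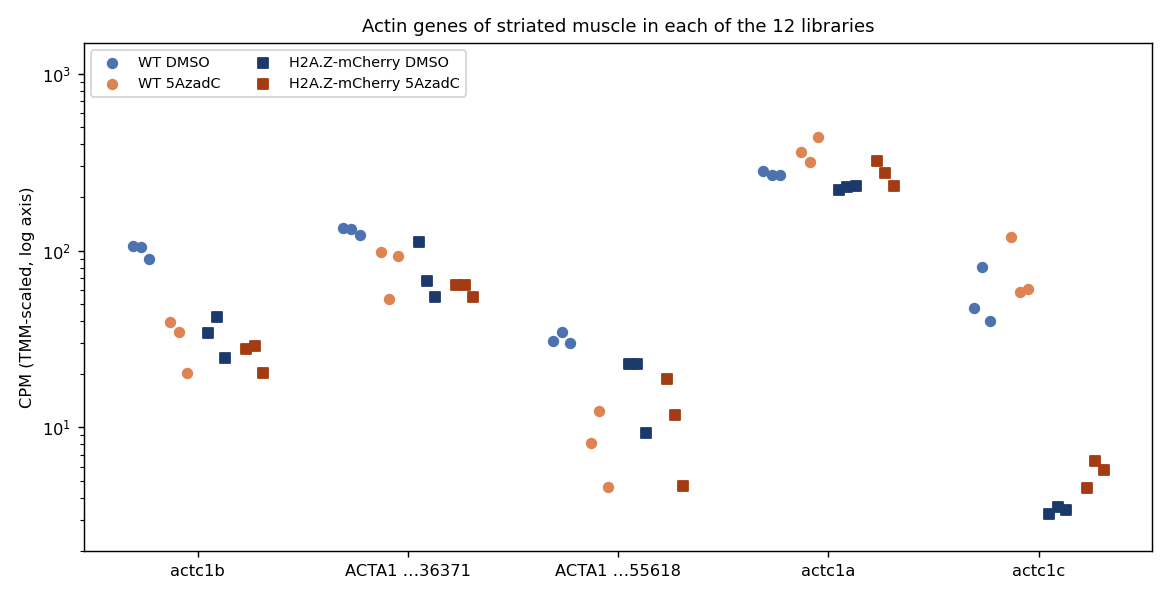
Level of 5 alpha-actin genes in CPM (TMM-scaled, logarithmic axis) in each of the 12 libraries, 3 a group; dots after ACTA1 stand for the first digits of its identifier. The highest actc1b points are the 3 DMSO-treated wild-type libraries (89.3 to 105.6 CPM), and the 6 H2A.Z-mCherry libraries of actc1c sit between 3.24 and 6.48 CPM, under all 6 wild-type libraries.

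Slow myosin heavy chains are the motor proteins of the thick filament in the early slow fibres. smyhc2 stood at 14.6, 16.7 and 22.2 CPM in wild type with DMSO and at 1.49, 4.12 and 0 CPM with 5AzadC. The H2A.Z-mCherry libraries stood at 23.5, 11.2 and 9.35 CPM with DMSO and at 8.28, 5.30 and 0.521 CPM with 5AzadC. Treated libraries lay under untreated ones in both genotypes, and 1 treated wild-type library had no count. The log2 fold change was -3.16 ± 0.64 (SE; 8.93-fold lower, adjusted p = 8.03e-05) in wild type, and -4.30 without 5AzadC replicate 2 there. In H2A.Z-mCherry it was -1.70 ± 0.54 (SE; adjusted p = 0.0199), and -2.34 without 5AzadC replicate 1. The latter call was lost without H2A.Z-mCherry DMSO replicate 1 (adjusted p = 0.202) or 5AzadC replicate 3 (-1.11, 0.186), and the authors' deposited table gives it an adjusted p of 0.0639. The interaction of 1.46 ± 0.88 (SE; adjusted p = 0.441) was not called.

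smyhc1 was too low for the test. It had 7, 5 and 22 counts in wild type with DMSO and 1, 0 and 0 counts with 5AzadC. In H2A.Z-mCherry it had 6, 5 and 8 counts with DMSO and 6, 1 and 0 counts with 5AzadC. Pooled over libraries and scaled by their sizes, 34 counts against 1 gave a ratio of 25.5 in wild type (exact 95% interval 4.28 to 1040, counting error only). In H2A.Z-mCherry, 19 counts against 7 gave a ratio of 3.27 (1.31 to 9.19). The authors' deposited table, which holds this gene, gives a log2 fold change of -4.60 (standard error 1.49, adjusted p = 0.0188) in wild type and -1.62 with no adjusted p in H2A.Z-mCherry. With no filter on low counts, edgeR gave -4.34 ± 1.18 (SE; adjusted p = 0.00416) in wild type, -1.58 ± 0.91 (SE; adjusted p = 0.390) in H2A.Z-mCherry and an interaction of 2.75 ± 1.60 (SE; adjusted p = 0.581). RefSeq's GRCz12tu annotation lists smyhc1, smyhc2 and smyhc3 as direct neighbours, and reads shared by these near copies could be split between them.

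CSRP3, the muscle LIM protein of the Z disc, had no count at all in treated wild type. It had 8, 7 and 6 counts in wild type with DMSO and 0, 0 and 0 counts with 5AzadC. In H2A.Z-mCherry it had 9, 9 and 3 counts with DMSO and 13, 9 and 16 counts with 5AzadC. It was at least 5.25-fold lower in treated than in untreated wild type (adjusted p = 0.00342). Such bounds take 3 counts over the group as the limit that a count of 0 allows, and the other group's counts as exact. In H2A.Z-mCherry, 38 treated against 21 untreated counts gave a ratio of 1.5 (exact 95% interval 0.861 to 2.70), and the log2 fold change was 0.60 ± 0.67 (SE; adjusted p = 0.600). Among treated embryos, CSRP3 was at least 9.32-fold higher in H2A.Z-mCherry than in wild type (adjusted p = 0.000432, and 0.000180 with no filter). With the H2A.Z-mCherry ratio taken at its point value of 1.5, without its interval, the ratio of the responses was at least 7.87. The interaction had an adjusted p of 0.0205 (0.0206 with no filter). CSRP3 passed the filter through H2A.Z-mCherry libraries, as stated above. That call was lost without wild-type 5AzadC replicate 1 (adjusted p = 0.0650) or 3 (0.0535), or H2A.Z-mCherry 5AzadC replicate 1 (0.0503). CSRP3 did not pass the filter without H2A.Z-mCherry 5AzadC replicate 3, nor, save for the response in H2A.Z-mCherry, with the compared groups alone, and it has no value there. All CSRP3 values rest on few counts.

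SRL encodes sarcalumenin, a calcium-binding glycoprotein of the sarcoplasmic reticulum. It stood at 15.18, 14.95 and 7.168 CPM in wild type with DMSO and at 5.21, 2.47 and 1.85 CPM with 5AzadC. In H2A.Z-mCherry it stood at 10.5, 6.47 and 7.65 CPM with DMSO and at 6.77, 6.48 and 8.85 CPM with 5AzadC. The treated wild-type libraries lay under all others, and the 2 H2A.Z-mCherry groups overlapped. Its log2 fold change was -1.91 ± 0.58 (SE; adjusted p = 0.0103) in wild type and -0.13 ± 0.52 (SE; adjusted p = 0.902) in H2A.Z-mCherry. The wild-type call was lost without wild-type DMSO replicate 1 (adjusted p = 0.0546) or 2 (0.0545), or 5AzadC replicate 3 (0.0524). The interaction of 1.78 ± 0.79 (SE; adjusted p = 0.224) did not pass.

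MEF2C (ENSDARG00000029764) encodes a transcription factor that works with the myogenic factors and drives sarcomere genes. It stood at 55.0, 52.3 and 41.7 CPM in wild type with DMSO and at 5.21, 12.4 and 9.23 CPM with 5AzadC. The H2A.Z-mCherry libraries stood at 38.9, 32.9 and 29.8 CPM with DMSO and at 19.6, 11.8 and 20.3 CPM with 5AzadC. The order of the group means was wild type with DMSO, H2A.Z-mCherry with DMSO, treated H2A.Z-mCherry and treated wild type, with overlap between the last pair alone. The log2 fold change was -2.48 ± 0.32 (SE; 5.59-fold lower, adjusted p = 2.92e-09) in wild type and -0.97 ± 0.29 (SE; adjusted p = 0.0121) in H2A.Z-mCherry. The latter call was lost without H2A.Z-mCherry DMSO replicate 1 (adjusted p = 0.0586) or 5AzadC replicate 2 (0.117). The interaction was 1.51 ± 0.45 (SE; adjusted p = 0.0360). It was not called with no filter on low counts (adjusted p = 0.0507) or in 8 of the 12 fits without a library, which were all but those that left out, in wild type, replicate 3 of DMSO or 2 of 5AzadC, and, in H2A.Z-mCherry, replicate 1 of DMSO or 2 of 5AzadC (adjusted p up to 0.171). A second MEF2C gene (ENSDARG00000009418), outside the set and named after its values were seen, did not show the larger fall in wild type. It went from 15.7 ± 2.84 to 6.82 ± 5.06 CPM (mean ± SD, n = 3) with 5AzadC in wild type. In H2A.Z-mCherry it went from 14.5 ± 7.54 to 6.34 ± 2.35 CPM.

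**Figure D3:**
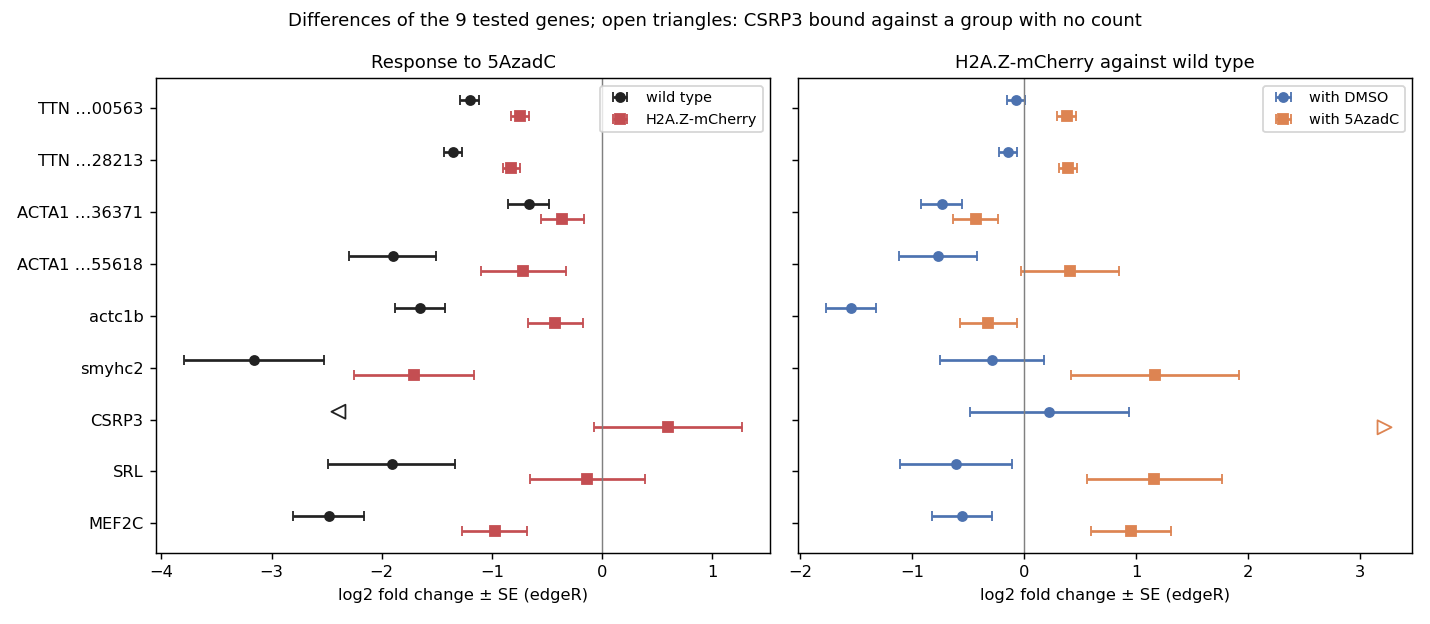
log2 fold change ± SE (edgeR) of the 9 tested genes, with the response to 5AzadC in each genotype on the left and the difference between genotypes under each treatment on the right; open triangles mark CSRP3 at its bound, and dots stand for the first digits of an identifier. On the left, every wild-type point lies further left than the H2A.Z-mCherry point of the same gene, for example at -1.36 against -0.82 for TTN (ENSDARG00000028213) and at -1.91 against -0.13 for SRL.

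Without drug, the called differences between genotypes were in actin genes. With DMSO, 2 of the 9 genes were lower in H2A.Z-mCherry, actc1b and ACTA1 (ENSDARG00000036371), where 2.59% of tested genes were called lower and 5.32% in either direction, and the median was -0.55 against 0.00. Without H2A.Z-mCherry DMSO replicate 2 or 3, actc1b was the 1 gene called, where 3.7% and 3.39% of all tested genes were called. In 5 genes, both ACTA1 genes, actc1b, MEF2C and TTN (ENSDARG00000028213), the groups did not overlap, where 10.9% of tested genes separated downward. The titin differences were -0.08 ± 0.08 (SE; adjusted p = 0.716) for ENSDARG00000000563 and -0.14 ± 0.08 (SE; adjusted p = 0.366) for ENSDARG00000028213. MEF2C differed by -0.55 ± 0.26 (SE; adjusted p = 0.259), SRL by -0.61 ± 0.50 (SE; adjusted p = 0.595) and smyhc2 by -0.29 ± 0.47 (SE; adjusted p = 0.834).

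With 5AzadC, the called differences were upward. Both titin genes and CSRP3, 3 of the 9, were higher in H2A.Z-mCherry, where 8% of tested genes were called higher and 15.6% in either direction, and the median was 0.41 against 0.01. CSRP3 is in that count although it passed the filter through H2A.Z-mCherry libraries alone, where it is high, so its call adds no support. Titin was higher by 0.38 ± 0.08 (SE; adjusted p = 0.000577) for ENSDARG00000000563, whose groups overlapped by 1 library, and by 0.39 ± 0.08 (SE; adjusted p = 0.000228) for ENSDARG00000028213, whose groups did not. The groups did not overlap for TTN (ENSDARG00000028213), CSRP3 and SRL, where 15.5% of tested genes separated upward, and SRL differed by 1.16 ± 0.61 (SE; adjusted p = 0.198). MEF2C differed by 0.95 ± 0.36 (SE; adjusted p = 0.0584) and smyhc2 by 1.17 ± 0.75 (SE; adjusted p = 0.317). Without wild-type 5AzadC replicate 2, 5 genes were called, with MEF2C higher (1.27, adjusted p = 0.0312) and ACTA1 (ENSDARG00000036371) lower (-0.66, adjusted p = 0.0134). Of all genes tested in that fit, 13.6% were called. MEF2C was also called without H2A.Z-mCherry 5AzadC replicate 2 (1.17, adjusted p = 0.0303). The interaction shares all 12 libraries with the comparisons above and is no separate evidence.

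Other genes of the sarcomere and its membranes, from lists set beside the members, moved less uniformly. The members were chosen with earlier results of these data known, so that contrast is a description and no test. Among all tested genes, 11.7% were called lower and 10.7% higher with 5AzadC in wild type, and 9.03% lower and 8.84% higher in H2A.Z-mCherry. Of 9 tested genes of the thick filament and myosin assembly, 3 fell and 0 rose with 5AzadC in wild type (median -0.52). These were myl13, a myosin light chain (-2.20 ± 0.73 SE, adjusted p = 0.0214), MYOM1, which encodes the M-band protein myomesin (-1.90 ± 0.48 SE, adjusted p = 0.00156, and -2.52 without wild-type 5AzadC replicate 1), and SMYD1, a methyltransferase needed for myosin assembly (-0.93 ± 0.33 SE, adjusted p = 0.0316). Without wild-type DMSO replicate 1 or 2, 1 of the list was called. In those fits the adjusted p was 0.0863 and 0.0717 for myl13 and 0.0967 and 0.0809 for SMYD1. The call of myl13 was also lost without wild-type 5AzadC replicate 3 (0.115), and that of SMYD1 without wild-type 5AzadC replicate 1 (0.119) or 2 (0.0927) and with no filter (0.0563). In H2A.Z-mCherry, edgeR called 0 of the 9 (median -0.34; 2 had an unadjusted p under 0.05) and DESeq2 called 0, and 1 was called with the replicate block, with only the groups compared, and without wild-type 5AzadC replicate 3 or H2A.Z-mCherry 5AzadC replicate 1.

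Of 19 tested genes of the thin filament and Z disc, 6 fell and 1 rose in wild type (median -0.53), where 11.7% of all tested genes were called lower and 10.7% higher. obsl1a, an obscurin-like protein, ranged from 17.1 to 29.3 CPM with DMSO and from 2.23 to 5.54 CPM with 5AzadC (log2 fold change -2.71 ± 0.52 SE, adjusted p = 2.61e-05). KLHL31, a kelch protein of muscle, changed by -1.94 (adjusted p = 2.79e-05), and FLNC (ENSDARG00000018566), the filamin of the Z disc, changed by -1.48 (adjusted p = 1.04e-06). The 1 riser was actc1a. In H2A.Z-mCherry, where 9.03% of all tested genes were called lower and 8.84% higher, 3 fell and 0 rose (median -0.45). They were FLNC (ENSDARG00000018566; -0.94, adjusted p = 0.00359), the second FLNC (ENSDARG00000018820; -0.58, adjusted p = 1.33e-05) and DES, the desmin gene (-0.85, adjusted p = 0.0451). The DES call was lost in 8 of the 12 fits without a library (adjusted p from 0.0508 to 0.270), as well as with DESeq2 (0.0548) and with no filter (0.101).

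Of 12 tested genes of excitation-contraction coupling and muscle metabolism, 4 fell and 3 rose in wild type (median -0.47). Among all tested genes there, 11.7% were called lower and 10.7% higher. RYR1 (ENSDARG00000023797), the calcium release channel of the sarcoplasmic reticulum, ranged from 39.7 to 49.3 CPM with DMSO and from 2.47 to 8.31 CPM with 5AzadC in wild type. Its log2 fold change was -3.09 (adjusted p = 2.92e-09) there and -2.70 (adjusted p = 3.05e-07) in H2A.Z-mCherry, or -3.91 without H2A.Z-mCherry 5AzadC replicate 1. CHRNG, an acetylcholine receptor subunit, changed by -2.72 (adjusted p = 0.00203), or -3.64 without wild-type 5AzadC replicate 2, and musk, a kinase of the neuromuscular junction, fell by 1.44 (adjusted p = 0.00192) in wild type. Levels went up there without overlap for atp2a2a, from 30.9 ± 4.04 to 65.65 ± 4.10 CPM (mean ± SD, n = 3). The same held for ENO3 (17.9 ± 3.46 to 42.0 ± 12.7 CPM) and CACNB1 (13.7 ± 2.53 to 27.4 ± 3.54 CPM), all 3 named after their values were seen. In H2A.Z-mCherry, where 9.03% of all tested genes were called lower and 8.84% higher, 2 fell and 1 rose (median -0.14). The other faller was RYR1 (ENSDARG00000011422, -2.52, adjusted p = 2.20e-08). The riser was PYGM, the glycogen phosphorylase of muscle (2.03, adjusted p = 0.00649), whose value was 2.97 without H2A.Z-mCherry DMSO replicate 1 and whose call was lost without DMSO replicate 2 (1.43, adjusted p = 0.0882) or 5AzadC replicate 3 (0.0566). With 5AzadC, 2 of the list were lower in H2A.Z-mCherry than in wild type, unlike the called members. Of all tested genes, 15.6% were called there in either direction and 8% higher. The 2 were RYR1 (ENSDARG00000011422, -1.18 ± 0.39 SE, adjusted p = 0.0258, lost in 4 of the 12 fits without a library) and atp2a2a (-1.02 ± 0.23 SE, adjusted p = 0.000881). In that comparison, the thin filament and Z disc list had 1 gene higher and 2 lower. The presomitic mesoderm and somite list had 3 higher and 0 lower, and the notochord list 1 higher and 0 lower. The interaction of atp2a2a was -1.19 ± 0.34 (SE; adjusted p = 0.0284), lost in 7 of those 12 fits.

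Of 21 tested myogenic transcription factors and fusion genes, 4 fell and 2 rose in wild type (median -0.42), where 11.7% of all tested genes were called lower and 10.7% higher. In H2A.Z-mCherry, where 9.03% were called lower, 5 fell and 0 rose (median -0.27), or 3 fell without H2A.Z-mCherry 5AzadC replicate 2. mymx, a micropeptide of myoblast fusion, ranged from 38.5 to 51.2 CPM with DMSO and from 2.47 to 10.2 CPM with 5AzadC in wild type. Its fold change on the log2 scale was -2.70 (adjusted p = 7.35e-09) there and -1.43 (adjusted p = 0.000695) in H2A.Z-mCherry. MEF2D fell by 0.71 (adjusted p = 0.000266) in wild type. Upward there without overlap went PRDM1, from 64.0 ± 3.96 to 94.3 ± 15.4 CPM (mean ± SD, n = 3), and six4b, from 55.3 ± 3.87 to 84.9 ± 7.97 CPM. Both were named after their values were seen. CDON, a receptor that promotes myogenesis, fell by 0.70 (adjusted p = 4.34e-07) in wild type and fell by 0.98 (adjusted p = 3.62e-11) in H2A.Z-mCherry. SRF (ENSDARG00000102867), a factor that activates actin genes, fell by 1.03 (adjusted p = 0.00464) in H2A.Z-mCherry, but was not called without 5AzadC replicate 2 there (0.0713). The second SRF (ENSDARG00000053918), named after its values were seen, went from 70.1 ± 3.15 to 58.6 ± 6.49 CPM (mean ± SD, n = 3) in H2A.Z-mCherry. In wild type it went from 54.8 ± 9.07 to 56.2 ± 10.7 CPM.

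Among the factors named after their values were seen, MYF5 ranged from 83.5 to 89.3 CPM with DMSO and from 79.4 to 98.8 CPM with 5AzadC in wild type, a log2 fold change of 0.04 ± 0.17 (SE; adjusted p = 0.905). MYOD1 ranged from 13.8 to 40.5 CPM with DMSO and from 23.9 to 29.0 CPM with 5AzadC (-0.10 ± 0.30 SE, adjusted p = 0.868). In H2A.Z-mCherry their log2 fold changes were 0.01 ± 0.17 (SE; adjusted p = 0.969) for MYF5 and 0.03 ± 0.30 (SE; adjusted p = 0.967) for MYOD1. The treated and untreated ranges of both genes overlapped in both genotypes. MYOG, myogenin, changed by -1.12 ± 0.68 (SE; adjusted p = 0.260) in wild type and by 0.34 ± 0.62 (SE; adjusted p = 0.766) in H2A.Z-mCherry. Its wild-type groups did not overlap, at 5.87 to 9.20 CPM with DMSO and 0.745 to 5.54 CPM with 5AzadC. In that comparison, 17.9% of tested genes separated downward. The H2A.Z-mCherry groups of MYOG overlapped.

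**Figure D4:**
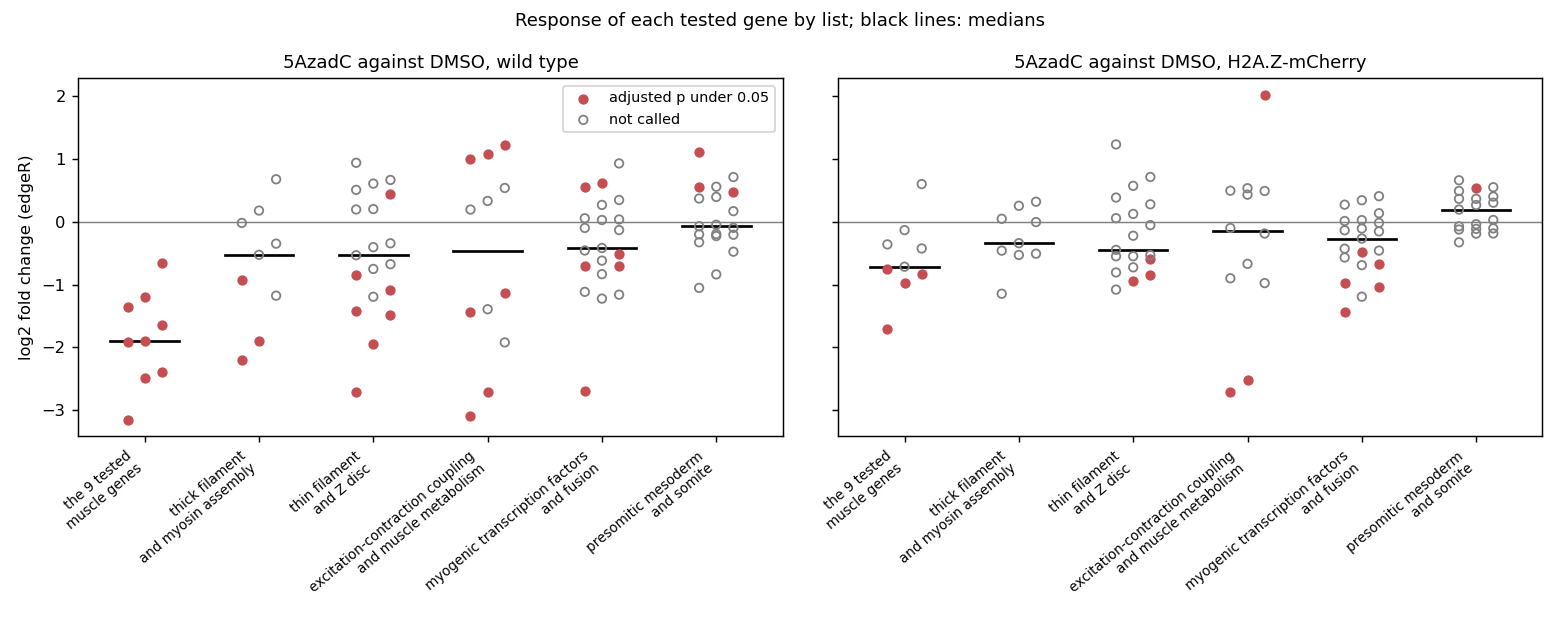
log2 fold change with 5AzadC (edgeR) of each tested gene, by list, in wild type (left) and H2A.Z-mCherry (right), with medians as lines, filled points for an adjusted p under 0.05 and CSRP3 drawn at its bound in wild type. The 9 tested members have medians of -1.90 and -0.71, and the presomitic mesoderm and somite list has medians of -0.07 and 0.20.

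Markers of the tissue that precedes muscle were read in the same way. Of 19 tested genes of the presomitic mesoderm and somite, 3 rose and 0 fell in wild type, where 10.7% of all tested genes were called higher and 11.7% lower, and 7 had an unadjusted p under 0.05. In H2A.Z-mCherry, where 8.84% of all tested genes were called higher, 1 rose and 0 fell, and 3 had an unadjusted p under 0.05. TBXT (ENSDARG00000039806), a marker of the posterior mesoderm and notochord chosen after its values were seen, went from 13.2 ± 3.74 to 6.28 ± 1.26 CPM (mean ± SD, n = 3) in wild type without overlap but was not called (edgeR, adjusted p = 0.133). Its relative tbxta went from 67.6 ± 2.81 to 63.8 ± 16.7 CPM in wild type, with overlapping groups. In H2A.Z-mCherry tbxta went from 64.5 ± 7.32 to 83.8 ± 12.4 CPM. FGF8 (ENSDARG00000003399), likewise chosen after its values were seen, went from 67.0 ± 4.75 to 48.6 ± 11.4 CPM in wild type (edgeR, adjusted p = 0.0776). Their summed level, over 25 genes, was 910 to 984 CPM in wild type with DMSO and 1006 to 1072 CPM with 5AzadC, and it was 1015 to 1135 and 1120 to 1236 CPM in H2A.Z-mCherry. In wild type, 0 of the 25 were at 0 in a whole group, and in H2A.Z-mCherry 1 was in each. The risers in wild type were MEOX1, a homeobox gene of the somite (1.11 ± 0.29 SE, adjusted p = 0.00263), tbx6 (0.55 ± 0.14 SE, adjusted p = 0.00210) and ripply1 (0.48 ± 0.17 SE, adjusted p = 0.0376), both of segmentation. The treated and untreated groups of tbx6 and ripply1 overlapped. Calls were lost for MEOX1 without wild-type DMSO replicate 3 (0.0571), and for tbx6 without wild-type 5AzadC replicate 1 (0.121). For ripply1 the call was lost with DESeq2 (0.0557), with upper quartile factors (0.0510) and in 4 fits without a wild-type library (0.0948 to 0.184). The riser in H2A.Z-mCherry was msgn1, a factor of the presomitic mesoderm (0.53 ± 0.15 SE, adjusted p = 0.00708). Without H2A.Z-mCherry DMSO replicate 1 (0.0551) or 5AzadC replicate 3 (0.131) msgn1 was not called and the count was 0, and it was 2 without 5AzadC replicate 1.

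Heart and smooth muscle can share contractile genes with the somites. Their markers were read as well, and so were those of the notochord. Of 7 tested heart genes, 1 rose and 2 fell in wild type, where 10.7% of all tested genes were called higher and 11.7% lower. GATA6 rose by 0.98 (adjusted p = 1.29e-06), myh6, an atrial myosin, fell by 2.48 (adjusted p = 0.00359), and TBX20 fell by 2.19 (adjusted p = 0.0246), the last lost without wild-type DMSO replicate 3 (0.120) or 5AzadC replicate 1 (0.118). The summed level over 18 heart genes was 172 to 192 CPM in wild type with DMSO and 258 to 272 CPM with 5AzadC, and 193 to 235 and 196 to 232 CPM in H2A.Z-mCherry, with 4 to 6 genes at 0 in a group. That sum is mainly a value of GATA genes. In wild type, means went from 68.3 to 134.4 CPM for GATA6, 49.3 to 62.9 for gata4 and 26.5 to 40.6 for GATA5. HAND2 went from 7.635 to 12.37 CPM. Downward went myh6 (11.19 to 1.969 CPM), TBX20 (9.175 to 1.995) and TBX5 (5.514 to 1.36). Genes not called were named after their values were seen. The defining heart markers MYL7 and cmlc1 were at 0 in all 12 libraries, and NKX2-5 had 5 counts in all. In H2A.Z-mCherry, where 8.84% of all tested genes were called higher and 9.03% lower, GATA6 rose (0.55, adjusted p = 0.00925) and myh6 fell (-1.74, adjusted p = 0.0212, and -2.40 without 5AzadC replicate 1). Of these, 1 was called without 5AzadC replicate 3 (0.0917 for myh6) or, in the list as a whole, DMSO replicate 2 (0.110 for GATA6, 0.465 and -0.89 for myh6), and 0 without 5AzadC replicate 2 (0.0636 and 0.140).

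Of 4 tested smooth muscle genes, 1 fell in wild type, smtnb (-0.99, adjusted p = 0.0146; lost without wild-type DMSO replicate 3, 0.0638, or 5AzadC replicate 1, 0.0887), and edgeR and DESeq2 called 0 in H2A.Z-mCherry, where 0 had an unadjusted p under 0.05. Their summed levels over 9 genes ran from 51.0 to 83.4 CPM over the 12 libraries, with 1 to 3 genes at 0 in a group. Among all tested genes, 11.7% were called lower and 10.7% higher in wild type, and 9.03% and 8.84% in H2A.Z-mCherry. Of 9 tested notochord genes, cmn changed by -1.40 in wild type (adjusted p = 0.000401) and ntd5 rose in H2A.Z-mCherry by 1.216 (adjusted p = 2.18e-05). For the notochord list, 1 called gene of 9 in each genotype is near those shares. A second notochord gene was called without wild-type 5AzadC replicate 3 in the first comparison and without H2A.Z-mCherry DMSO replicate 2 in the second. Their summed levels over 12 genes ran from 290 to 433 CPM, with 2 or 3 genes at 0 in a group. What part these tissues have in the members' values was not tested.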

How the data were processed

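Total RNA-seq of whole zebrafish embryos was deposited by the authors as a table of read counts per gene for 12 libraries, together with tables of log2 fold changes, standard errors and p-values of the authors' own comparisons. Per the submitters' processing notes, STAR, featureCounts 2.0.3 of Subread, DESeq2 1.22.2 and deepTools were used with the build GRCz11. The gene annotation, the strand setting and the treatment of reads that match several genes are stated in none of these sources, so reads of overlapping or antisense genes may be mixed.

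From the deposited counts, all 4 groups were fitted together with edgeR 4.0.16 in R 4.3.3 (TMM factors, filterByExpr with a minimum count of 10, quasi-likelihood test, Benjamini-Hochberg adjustment over 12293 genes, biological coefficient of variation 14.8%). The script was tested on simulated data. Log2 changes are edgeR's fitted values. Their standard errors are not an output of edgeR and were derived as the absolute log2 change divided by the square root of the F statistic. Intervals cover counting error only, at 95% confidence. Floors take 3 counts over a group as the 95% limit of a count of 0, with the other group's counts taken as exact. DESeq2 1.42.0, 2 other normalizations, no filter, a replicate block, the compared groups alone and each library left out were the alternatives. Same-numbered replicates did not deviate together (18 pairs, r from -0.0265 to 0.0240, 0 over 0.1). Replicates differed by more than sampling noise (chi-square per degree of freedom 2.39 to 3.17), so no library was counted as a duplicate.

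All 10 members are named, and of each list up to 3 called genes with the largest change; further genes are said to be chosen after their values were seen. The members and the lists were chosen with earlier results of these data known. Of 32520 genes, 29201 had a symbol. RefSeq's GRCz12tu table gave names of neighbours only.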

Additional observations from a re-analysis of the deposited data

Results flagged for a closer look

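Among the 9 tested genes, 5 had a response to 5AzadC that differed between the genotypes by the interaction test of edgeR. All 5 were positive, where 1.9% of all tested genes were called positive and 3.75% in either direction. The adjusted p of the interaction was 0.00155 for TTN (ENSDARG00000028213), 0.0125 for TTN (ENSDARG00000000563), 0.0205 for CSRP3, 0.0225 for actc1b and 0.0360 for MEF2C. In each case the fall in wild type was the larger one, and for CSRP3 the change in H2A.Z-mCherry was upward but not called. CSRP3 had passed the filter through H2A.Z-mCherry libraries alone. Only the call of TTN (ENSDARG00000028213) held in every fit that left out a library. Such fits lost the call 8 times for MEF2C, 6 for actc1b, 4 for TTN (ENSDARG00000000563) and 3 for CSRP3, which was not tested in all of them. For actc1b the levels with DMSO differed between the genotypes as well (100.0 ± 9.33 CPM in wild type and 33.7 ± 8.84 CPM in H2A.Z-mCherry, mean ± SD, n = 3), and the treated levels were 31.5 ± 9.95 CPM and 25.7 ± 4.68 CPM.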

How the results depend on the processing

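With DESeq2, RLE factors, upper quartile factors, no filter, the replicate block or the compared groups alone, the number of members called stayed within 1.5 times in every comparison. With the replicate block, 9, 4, 2, 3 and 5 members were called in the 5 comparisons, as without it, and it changed no other member's call. The shares of all tested genes called with the block were 22.1%, 18%, 5.3%, 15.2% and 3.77%. Between genotypes with 5AzadC, smyhc2, SRL and CSRP3 did not pass the filter with the compared groups alone. The interaction needs all 4 groups and has no fit to fewer. DESeq2 gave no adjusted p for the interactions of CSRP3, smyhc2 and SRL. Each fit without a library repeated the filter, with 2 libraries in the smallest group. Such fits tested 12618 to 13086 genes and 8 to 10 of the members. They therefore differ from the main fit in the filter as well as in the library left out. Of all genes tested in these fits, 17 to 21.5% were called with 5AzadC in wild type and 10.9 to 17.6% in H2A.Z-mCherry. Between genotypes, 3.39 to 5.65% were called with DMSO and 10.7 to 15.4% with 5AzadC, and 2.43 to 4.29% had a called interaction. Leaving out 1 library moved the number of members called with 5AzadC to 8 to 10 in wild type and 2 to 4 in H2A.Z-mCherry (2 without H2A.Z-mCherry DMSO replicate 1). It moved the number that differed between genotypes to 1 to 2 with DMSO (1 without H2A.Z-mCherry DMSO replicate 2 or 3) and to 2 to 5 with 5AzadC (5 without wild-type 5AzadC replicate 2). The interaction count ran from 1 to 5, being 3 without wild-type DMSO replicate 1 or 2, H2A.Z-mCherry DMSO replicate 3 or 5AzadC replicate 3, 2 without wild-type 5AzadC replicate 1 or 3, and 1 without H2A.Z-mCherry 5AzadC replicate 1. The cause was not tested. The sign changed for 3 uncalled members: SRL in H2A.Z-mCherry (-0.29 to 0.0774), CSRP3 between genotypes with DMSO (-0.0871 to 0.52) and ACTA1 (ENSDARG00000055618) between genotypes with 5AzadC (-0.0679 to 0.83). The responses of MYF5 ran from -0.0385 to 0.12 in wild type and from -0.0472 to 0.0653 in H2A.Z-mCherry, and those of MYOD1 from -0.44 to 0.23 and from -0.18 to 0.30, with -0.0358 for MYOD1 in H2A.Z-mCherry under the replicate block. Alternatives for the listed genes were added after seeing the data. Depth limits smyhc1, smyhc2, CSRP3 and SRL, where 1 count is worth up to 0.923 CPM.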

Other observations

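Outside the members, the genes whose levels ran most closely with the mean standardised log2 CPM of the 9 tested members over the 12 libraries were LRBA (Pearson r = 0.964), the thyroid hormone receptor gene THRB (0.962), the non-coding RNA lnc.133 (0.957), cspg5a (0.953) and the replication helicase gene MCM4 (0.952). The libraries share 4 groups and the r values are a description. With 5AzadC in wild type, THRB changed by -2.39 (adjusted p = 4.50e-05) and cspg5a by -3.49 (adjusted p = 3.85e-08). In H2A.Z-mCherry they changed by -0.56 (adjusted p = 0.390) and -1.55 (adjusted p = 0.00740). Among the members, the r of a gene with the mean of the other tested members ran from 0.508 for ACTA1 (ENSDARG00000036371) to 0.912 for MEF2C.

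The somite gene MEOX1 was higher in H2A.Z-mCherry than in wild type without drug. It ranged from 6.52 to 21.9 CPM in wild type and from 51.7 to 82.7 CPM in H2A.Z-mCherry with DMSO, a log2 difference of 2.25 ± 0.27 (SE; edgeR, adjusted p = 8.25e-10). With 5AzadC the difference was 1.03 ± 0.25 (SE; adjusted p = 0.00165). The only other gene of the lists called higher there with DMSO was CSRP2, a relative of CSRP3 (1.23 ± 0.37 SE, adjusted p = 0.0320), which DESeq2 did not call (adjusted p = 0.0522) and which was lost without DMSO replicate 1 or 2 of wild type (0.113 and 0.141) or replicate 2 or 3 of H2A.Z-mCherry (0.152 and 0.0848).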
